A study of Mus musculus with 27 samples.

Results

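Monocytes sorted from the inflamed colon lamina propria of Mbd2-/- and WT mice were compared on all genes measured by microarray. The comparison used the 10 arrays labelled as colon monocytes, 5 of each genotype, out of the 27 arrays of the series, and the 16190 of 45281 probes that were detected (detection p under 0.05) on at least 5 of those 10 arrays. The WT samples are named here as arrays 1 to 5 and the Mbd2-/- samples as arrays 6 to 10, after the numbers in their labels. Both groups received 2% dextran sodium sulfate (DSS) in drinking water for 6 days, a chemical that injures the colon epithelium, so there was no group without colitis. The Mbd2-/- animals lacked Mbd2 in every cell and the WT animals were littermates, all on a C57BL/6 background, 8 to 22 weeks old, matched for age and sex and co-housed where this could be done. The deletion was global, so loss of Mbd2 in the monocytes and in other cells of the animal cannot be told apart. The study reports worse colitis in Mbd2-/- than in WT mice under DSS, so genotype and severity of colitis cannot be told apart either. Cells were sorted as CD45+Ly6G-Siglec-F-CD11b+Ly6C+ cells. Each sample held cells of 1 to 10 mice by the methods and 1 to 5 by the deposited record, and neither the mice nor the experiment they came from are tied to an array, so p-values measure only the spread between these samples.

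Ly6C+ monocytes are made in the bone marrow, enter the colon from the blood and mature there into macrophages, and in colitis they arrive in large numbers and take on the products of the inflamed tissue. Mbd2 is a protein that binds methylated CpG dinucleotides and brings the NuRD complex, which carries histone deacetylases, to methylated promoters, where it is known to repress transcription. Interferon-γ, made by lymphocytes, acts on monocytes and induces GTPases, chemokines and the machinery of antigen presentation.

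Mean intensity per array lay between 235 and 353, and 16024 to 17876 probes were detected on each array. The correlation of log2 values between any 2 monocyte arrays was 0.960 to 0.985 across probes. Of 19 monocyte genes on the array 17 were tested, and Ly6c1, Plac8, Csf1r, F13a1 and Vcan were detected on all 10 arrays. The Ccr2 probe was detected on 1 array. The single Mbd2 probe was not above background on any array (lowest detection p-value 0.0566), and the genotype labels therefore went unchecked by Mbd2 itself. Epithelial genes such as Muc2 and Krt8 were detected on all 10 arrays although Epcam was detected on none, and their summed level on the linear scale ran from 13839 to 27680 over WT arrays and from 17915 to 33046 over Mbd2-/- arrays. Genes of other leukocytes were also read. Of 14 B and plasma cell genes on the array 12 were tested and 2 (Ms4a1, Pax5) were detected on no array, and of 24 T and NK cell genes 15 were tested and 2 (Cd8a, Gzmb) were detected on none. Of 14 eosinophil and mast cell genes 3 were tested and 5, Siglecf and Epx among them, were detected on none. The summed linear level of those 3 ran from 887 to 1388 over WT arrays and from 1442 to 1880 over Mbd2-/- arrays, without overlap, and the part of such cells in the results was not tested. In sorted but bulk samples such as these, fewer cells of a type and less RNA per cell cannot be told apart.

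Of the 11993 genes tested, 59 (0.492%) were called different between genotypes by limma, which required 1 or more probes with an adjusted p (Benjamini-Hochberg) under 0.05 and a change of 1 or more in size on the log2 scale. Of these 43 (0.359%) were higher and 16 (0.133%) lower in Mbd2-/- monocytes. Without the minimum fold change 264 genes (2.2%) passed the adjusted p, 122 higher (1.02%) and 142 lower (1.18%). All arrays of one genotype lay above all of the other for 35 of the 43 genes called higher and for 13 of the 16 called lower, by the probe that made the call. Over all genes tested, by the brightest probe, this was so for 1.93% with Mbd2-/- higher and 3.16% with Mbd2-/- lower. The median log2 fold change over the brightest probes was -0.03. By the brightest probe 43.4% of all genes tested had a positive log2 fold change, and 16.4% had an unadjusted limma p under 0.05. Counts given for gene lists are to be read beside these shares and the shares that passed. Under median scaling in place of quantile normalisation the median over all probes was -0.26, against -0.02, and 16 genes were called higher and 43 lower. Log2 fold changes are therefore relative to the bulk of genes on the array.

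The size of the difference varied with the position of the arrays in the deposited table. In groups of 6 columns, the first group held WT arrays 1, 2 and 3 with Mbd2-/- arrays 9 and 10, and the second held WT arrays 4 and 5 with Mbd2-/- arrays 6, 7 and 8. Neither the table nor the labels say what these positions stand for. The median log2 fold change of the genes called higher was 1.77 in the first column group and 0.81 in the second, and that of the genes called lower was -1.42 and -1.18. The sign was the same in both for all 70 called probes. Of the genes called higher 36 of 43, and of those called lower 15 of 16, differed by at least 0.5 in each. The arrays of both column groups together made these calls, so such agreement is in part fixed by the choice of genes and is no replication. When the column group was a block in a fit of the monocyte arrays, 42 of the 59 called genes were still called. The 2 values are given as those of the column groups, in that order.

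**Figure D1:**
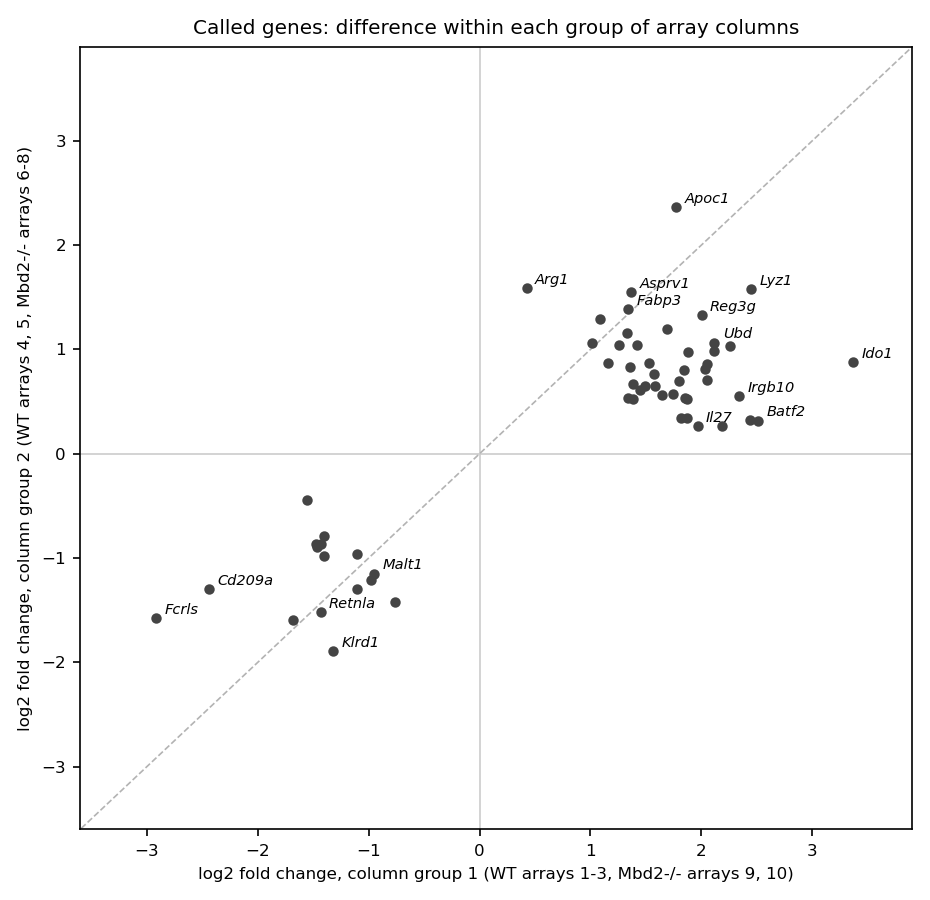
Log2 fold change (Mbd2-/- minus WT) of the genes called in monocytes, in the first column group of the table (x axis, WT arrays 1, 2, 3 against Mbd2-/- arrays 9, 10) and in the second (y axis, WT arrays 4, 5 against Mbd2-/- arrays 6, 7, 8), 1 point per gene, with a dashed line of equal values. Genes called higher had a median of 1.77 on the x axis and 0.81 on the y axis. Genes called lower had -1.42 and -1.18, with no gene of opposite sign. The same arrays chose these genes, so the shared sign is in part fixed by that choice.

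Of the genes that handle lipids, the apolipoprotein genes Apoc1 and Apoc4 and the fatty acid carrier Fabp3 rose. Apoc1, an apolipoprotein of triglyceride-rich particles and high-density lipoprotein, read 8.04, 8.08, 7.93, 7.77 and 7.48 on the WT arrays and 10.01, 9.69, 10.25, 10.10 and 9.49 on the Mbd2-/- arrays, in log2 normalised intensity. Every Mbd2-/- array was more than 1 log2 unit above the brightest WT array. The log2 fold change was 2.05 (standard error 0.17, limma adjusted p = 6.24e-07), and it was 1.77 and 2.36 in the first and second column group. Fabp3, a cytosolic carrier of long-chain fatty acids, was near background in WT, where 3 of 5 arrays detected it, at 4.41, 4.57, 4.88, 4.51 and 4.74. It read 5.91, 5.99, 6.13, 5.90 and 6.02 in Mbd2-/- (SD 0.09), with no overlap. Its log2 fold change was 1.37 (standard error 0.12, adjusted p = 9.86e-07), at 1.34 and 1.39 in the column groups. Apoc4, a neighbour of Apoc1 in the apolipoprotein cluster on chromosome 7, was detected on 1 WT array and all 5 Mbd2-/- arrays, and changed by 0.87 on the log2 scale (standard error 0.21, adjusted p = 0.0301), at 0.58 and 1.07 in the column groups. Of 24 lipid handling genes tested these 3 passed higher and 0 passed lower by limma. Of the 24, 14 had a positive log2 fold change and 7 an unadjusted p under 0.05, and the median was 0.13. Over all genes these shares were 43.4% and 16.4%. Of 21 cholesterol synthesis and uptake genes none passed the adjusted p by limma, 5 had an unadjusted p under 0.05, and the median was -0.24.

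The promoters of 4 genes among the clearest differences are printed because Mbd2 binds methylated CpG and they differ in CpG content. They were chosen after their values were seen. The sequences are the 250 bases before the first listed start site in RefSeq (GRCm38.p6), written on the strand of the gene with each CG in capitals. Fabp3 (chr4:130308488-130308737, plus strand) holds 17 CG, Cd81 (chr7:143052500-143052749, plus strand) 16, Fcrls (chr3:87263525-87263774, minus strand) 5 and Cd209a (chr8:3748985-3749234, minus strand) 1, and the median of all 27025 promoters listed is 6 (quartiles 2 and 16). Fabp3 rose and the other 3 genes fell in Mbd2-/- monocytes. Methylation was not measured here, and groups of genes were not compared, since only 64.4% of all genes tested had a listed promoter, with 60.5% of those called higher and 62.5% of those called lower.
Fabp3: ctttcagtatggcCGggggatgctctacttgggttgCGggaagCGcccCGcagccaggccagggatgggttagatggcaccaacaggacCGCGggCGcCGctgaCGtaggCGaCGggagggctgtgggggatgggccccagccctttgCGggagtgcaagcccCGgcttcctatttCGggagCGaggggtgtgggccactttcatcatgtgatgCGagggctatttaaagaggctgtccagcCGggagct
Cd81: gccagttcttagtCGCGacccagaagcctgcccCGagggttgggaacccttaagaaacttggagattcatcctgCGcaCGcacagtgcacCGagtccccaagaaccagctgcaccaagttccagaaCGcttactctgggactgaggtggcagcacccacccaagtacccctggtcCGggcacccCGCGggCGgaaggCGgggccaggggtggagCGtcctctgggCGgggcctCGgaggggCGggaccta
Fcrls: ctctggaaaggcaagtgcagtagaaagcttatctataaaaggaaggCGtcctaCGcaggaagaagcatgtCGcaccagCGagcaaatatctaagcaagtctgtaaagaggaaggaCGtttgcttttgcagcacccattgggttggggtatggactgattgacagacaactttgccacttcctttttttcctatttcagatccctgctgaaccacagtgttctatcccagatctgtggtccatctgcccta
Cd209a: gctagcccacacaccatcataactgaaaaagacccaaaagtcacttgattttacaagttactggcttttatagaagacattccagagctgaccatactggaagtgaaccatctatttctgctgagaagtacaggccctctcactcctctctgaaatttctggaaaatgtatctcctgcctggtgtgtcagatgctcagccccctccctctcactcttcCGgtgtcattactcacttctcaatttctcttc

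Ptges, the enzyme that makes prostaglandin E from prostaglandin H, rose, while the other 14 prostaglandin and leukotriene genes tested did not pass. It read 6.25, 6.08, 6.04, 7.45 and 7.12 in WT and 7.83, 7.59, 8.57, 8.36 and 7.98 in Mbd2-/-. WT arrays 4 and 5 lay closest to the Mbd2-/- arrays, and the genotypes did not overlap. The log2 fold change was 1.48 (standard error 0.32, adjusted p = 0.0156), at 2.05 and 0.71 in the column groups.

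Vcam1, an adhesion molecule that binds the integrin VLA-4, read 9.04, 9.47, 9.33, 10.27 and 10.17 in WT and 10.99, 11.24, 11.00, 11.24 and 11.42 in Mbd2-/-. The Mbd2-/- arrays lay in a narrow band above all WT arrays, and the log2 fold change was 1.52 (standard error 0.22, adjusted p = 0.000448), at 2.05 and 0.86 in the column groups. Among 24 integrin, adhesion and tetraspanin genes Vcam1 passed the adjusted p higher and Cd81 lower. Of the 24, 11 were positive (43.4% of all genes were) and 7 had an unadjusted p under 0.05 (16.4% of all genes). Lyz1, a lysozyme of Paneth cells and myeloid cells, was called by its middle probe, at 8.89, 8.38, 8.28, 9.35 and 8.78 in WT and 10.85, 10.49, 10.60, 11.04 and 10.89 in Mbd2-/- (log2 fold change 2.04, standard error 0.22, adjusted p = 1.79e-05). The brightest of its 3 probes gave 0.11 (adjusted p = 0.634), and since Lyz1 and Lyz2 are nearly identical, which of the genes each probe reads is uncertain.

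**Figure D2:**
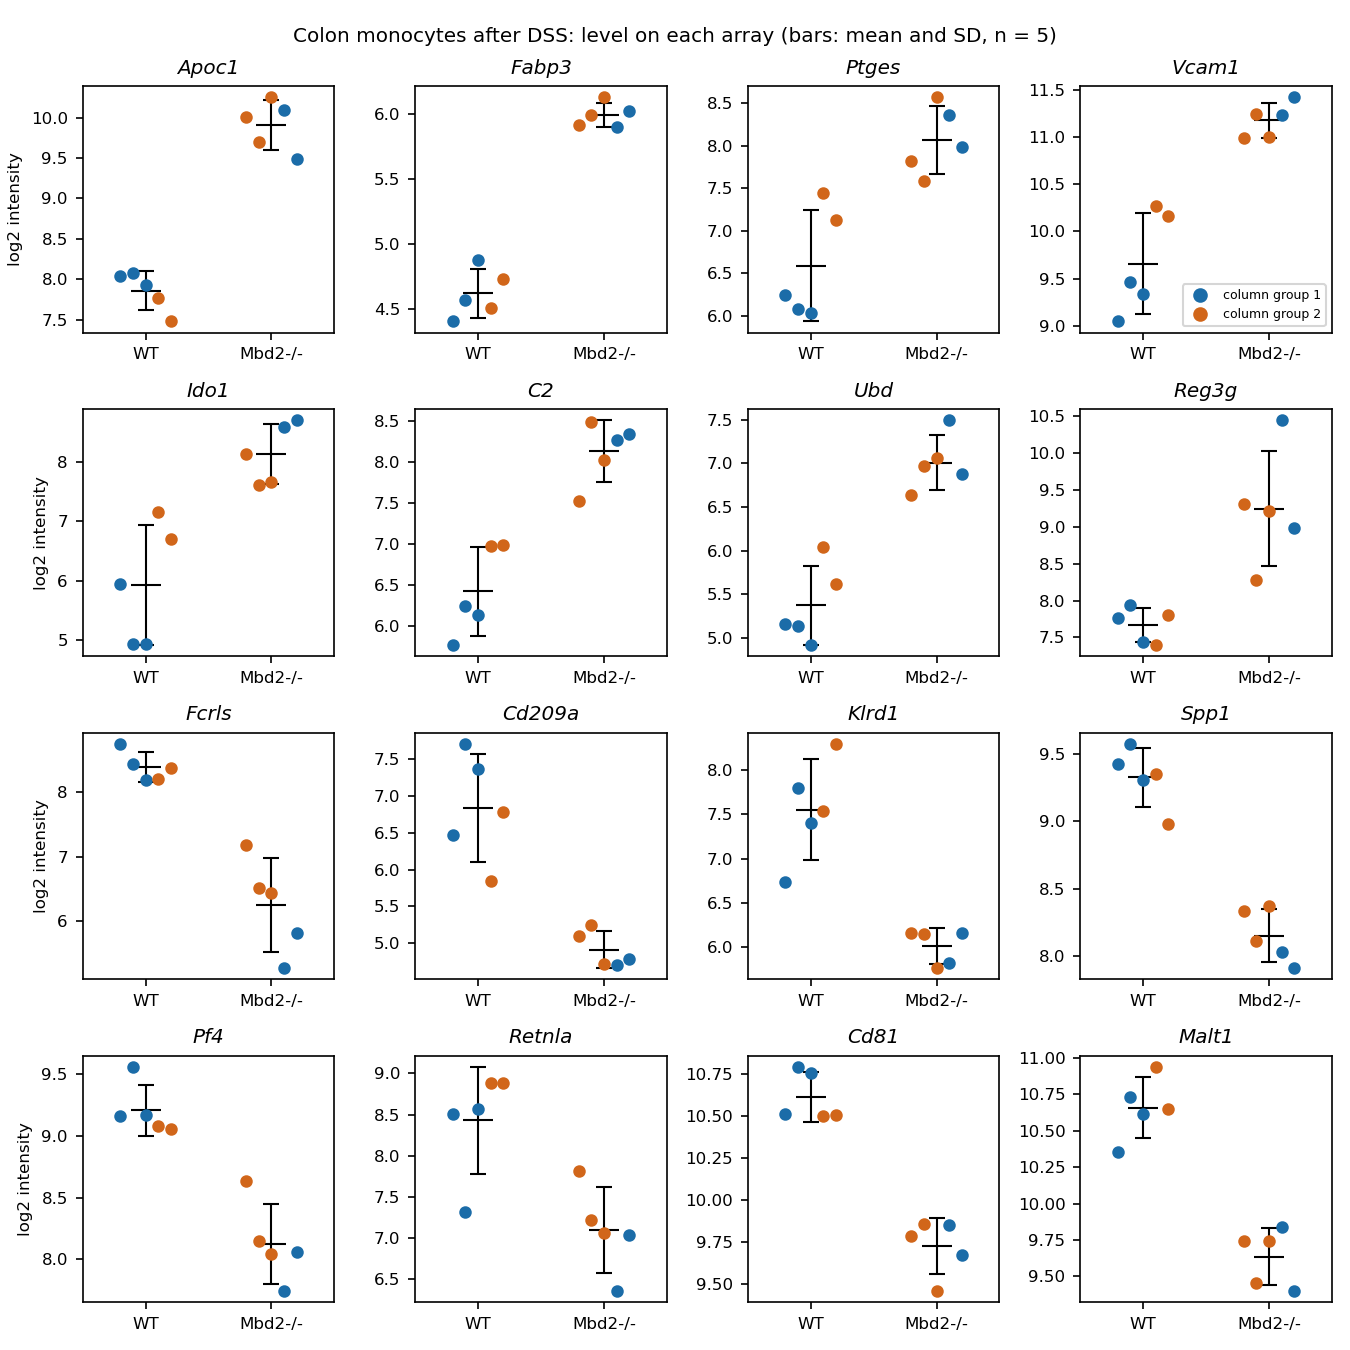
Log2 normalised intensity (y axis) on each of the 5 WT and 5 Mbd2-/- monocyte arrays, 1 panel for each of 16 genes, with bars for the mean and SD of each group (n = 5) and the colour showing the column group. Apoc1 and Fabp3 show no overlap and little spread, while in the WT group of Ido1 arrays 4 and 5 sit at 7.15 and 6.70, above the other WT arrays.

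Complement components C2 and C4, which form the convertase of the classical pathway, rose. C2 read 5.78, 6.25, 6.13, 6.98 and 6.99 in WT and 7.53, 8.50, 8.03, 8.27 and 8.35 in Mbd2-/-. C4b, a gene of the component C4, read 8.20, 8.79, 8.61, 9.57 and 9.32 in WT and 10.16, 10.56, 10.55, 10.51 and 10.30 in Mbd2-/-. For both genes all Mbd2-/- arrays were above all WT arrays, with WT arrays 4 and 5 the highest of the WT group. The log2 fold change was 1.71 for C2 (standard error 0.30, adjusted p = 0.00272) and 1.52 for C4b (standard error 0.34, adjusted p = 0.0206). In the column groups C2 differed by 2.26 and 1.03 and C4b by 1.88 and 0.98. Over 24 alternatives of the processing C2 passed the adjusted p in 23 and C4b in 15. C4b did not pass in 6 of the fits with a single array left out. A probe for C4a gave 1.50 (adjusted p = 0.0168), but C4a and C4b are almost identical and which of them each probe reads is uncertain. C1rl, a protease related to C1r that was not on the complement list, changed by 1.24 (adjusted p = 0.00876), and by 1.87 and 0.52 in the column groups, and its adjusted p was 0.0732 with the column block. Cfp, or properdin, which stabilises the alternative pathway convertase, was bright and fell by 0.45 (standard error 0.10, adjusted p = 0.0271), with WT and Mbd2-/- arrays overlapping (WT 11.86 to 12.39, Mbd2-/- 11.60 to 11.91). Of 13 complement genes tested, 2 passed higher and 1 lower, with a median of 0.21.

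Genes induced by interferon-γ were higher in Mbd2-/- monocytes by an amount that was far larger in the first column group than in the second. All 21 genes of the list had a positive log2 fold change, against 43.4% of all genes, and the median was 0.94. In the column groups the median was 1.62 and 0.04. By limma 4 of the 21 passed the adjusted p (2.2% of all genes did), and 3 of these, Ido1, Ubd and Batf2, were called. The median level of the 21 genes was 9.30, 9.01, 8.71, 10.23 and 9.76 on the WT arrays and 9.88, 9.67, 10.25, 10.18 and 10.46 on the Mbd2-/- arrays. WT arrays 1, 2 and 3 were low, while WT arrays 4 and 5 lay within the Mbd2-/- range. Without WT arrays 1, 2 and 3 the median log2 fold change of the list was 0.23, and without WT arrays 4 and 5 it was 1.36.

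Ubd, a ubiquitin-like protein that marks targets for the proteasome, read 5.15, 5.13, 4.92, 6.04 and 5.62 in WT and 6.64, 6.97, 7.06, 7.49 and 6.88 in Mbd2-/-. No WT array reached the lowest Mbd2-/- array, and the log2 fold change was 1.64 (standard error 0.24, adjusted p = 0.000671), at 2.12 and 1.06 in the column groups, with an adjusted p of 0.0122 with the column block. Irgb10, an immunity-related GTPase that acts on membranes of intracellular pathogens and was not on the list, gave 1.57 (adjusted p = 0.0327), at 2.34 and 0.55, and its adjusted p was 0.0576 with the column block. Batf2, a transcription factor of the interferon response, gave 1.55 (adjusted p = 0.0296) with overlapping genotypes, at 2.51 and 0.32, and an adjusted p of 0.137 with the column block.

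Cxcl9, a chemokine for activated T cells and a bright target of interferon-γ, read 11.44, 10.94, 10.24, 13.45 and 12.62 in WT and 13.03, 12.83, 13.39, 13.43 and 13.64 in Mbd2-/-. WT array 4 was as bright as the brighter Mbd2-/- arrays, and the log2 fold change of 1.53 (standard error 0.45) did not pass (adjusted p = 0.091). It was 2.66 in the first column group and 0.05 in the second. The GTPases Igtp and Gbp2, which attack membranes around intracellular pathogens, also did not pass. Igtp gave 1.21 (adjusted p = 0.0599), at 2.05 and 0.13, and Gbp2 gave 0.94 (adjusted p = 0.109), at 1.56 and 0.11. Their promoters are printed because both hold motifs of the interferon pathway, with GRCm38.p6 coordinates chr11:58199306-58199555 (plus strand) for Igtp and chr3:142620413-142620662 (plus strand) for Gbp2. The motifs searched on both strands were TTCNNNGAA, the gamma-activated site, and GAAANNGAAA, the interferon-stimulated response element, and matching letters are in capitals.
Igtp: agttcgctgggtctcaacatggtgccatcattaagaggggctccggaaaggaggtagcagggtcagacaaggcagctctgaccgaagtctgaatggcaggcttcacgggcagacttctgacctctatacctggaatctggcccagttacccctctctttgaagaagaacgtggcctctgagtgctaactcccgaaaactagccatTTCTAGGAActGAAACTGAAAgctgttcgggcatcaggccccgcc
Gbp2: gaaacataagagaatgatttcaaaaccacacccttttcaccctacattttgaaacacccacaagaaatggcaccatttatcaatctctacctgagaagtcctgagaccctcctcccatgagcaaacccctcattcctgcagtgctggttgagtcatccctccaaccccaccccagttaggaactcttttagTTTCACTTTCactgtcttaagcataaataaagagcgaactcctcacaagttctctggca

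In Igtp the first motif lies 45 to 37 bases and the second 34 to 25 bases before the start site, and they do not overlap. In Gbp2 the response element is on the opposite strand, 59 to 50 bases before the start. Of the 27025 listed promoters 7.18% hold the first motif, 3.04% the second and 105 both.

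Type I interferon genes moved less. Of 22 tested, 19 were positive, 1 passed and the median was 0.26, at 0.70 in the first column group and -0.15 in the second. The gene that passed was Zbp1, a sensor of left-handed nucleic acid, called by its dimmer probe (log2 fold change 1.14, adjusted p = 0.0204, at 1.58 and 0.65 in the column groups, adjusted p = 0.0664 with the column block). The brighter probe gave 0.84 (adjusted p = 0.0952).

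**Figure D3:**
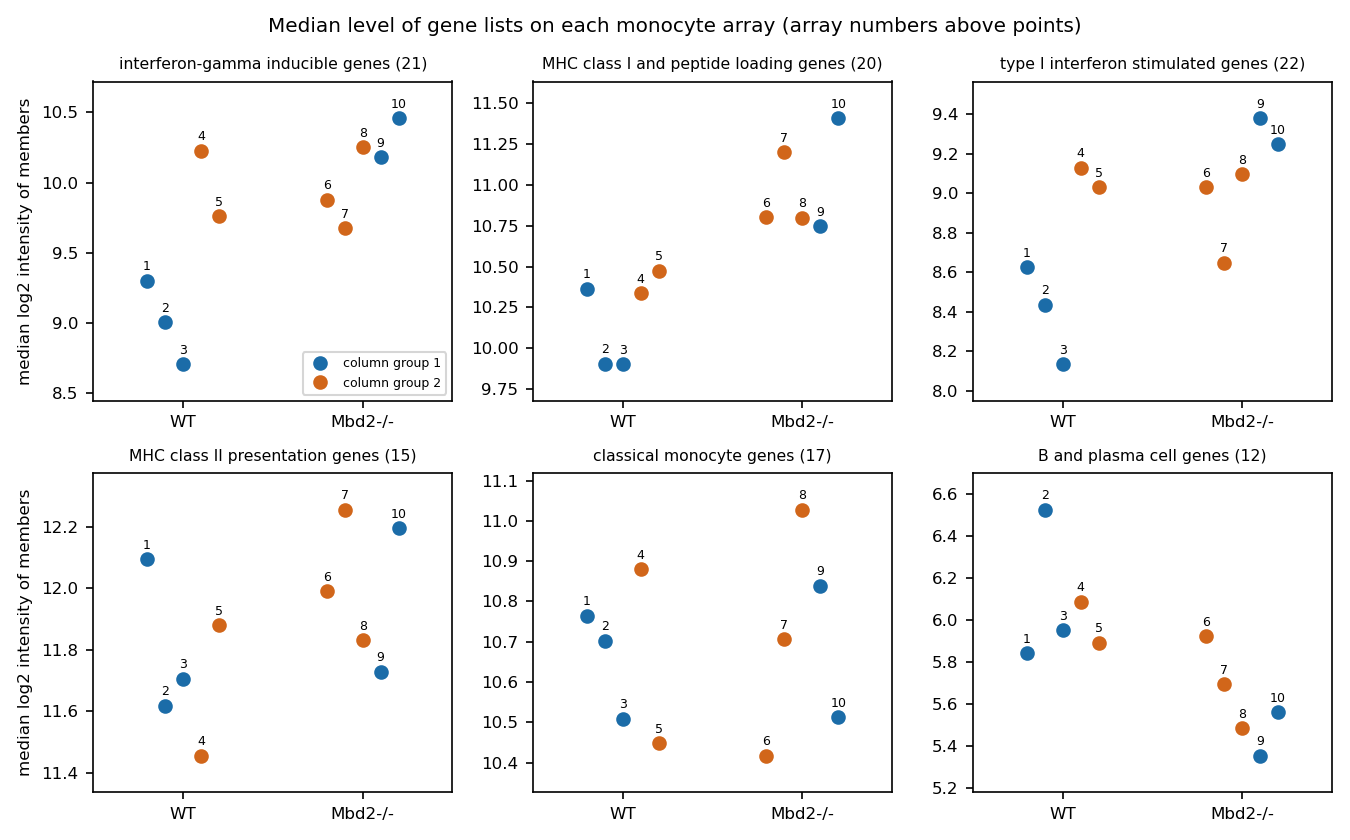
Median log2 normalised intensity of the genes of 6 lists (y axes, 1 panel per list) on each monocyte array, by genotype (x axes), with the array number above each point and the colour showing the column group. For interferon-γ inducible genes WT arrays 4 and 5 (10.23 and 9.76) lie within the Mbd2-/- range of 9.67 to 10.46, and WT arrays 1 to 3 (8.71 to 9.30) lie below it.

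Genes of MHC class I presentation were higher by smaller amounts, 6 of them past the test, and the level of the list did not overlap between genotypes. The median level of 20 genes was 10.36, 9.91, 9.90, 10.34 and 10.48 in WT and 10.80, 11.20, 10.80, 10.75 and 11.41 in Mbd2-/-, all 20 were positive, and the median log2 fold change was 0.59, at 0.90 and 0.17 in the column groups. Without WT arrays 1, 2 and 3 it was 0.25, and 6 of the 20 passed the adjusted p with all arrays. Of all genes 2.2% passed and 43.4% were positive. Tap1, a subunit of the transporter that moves peptides into the endoplasmic reticulum, gave 0.89 (adjusted p = 0.0236), at 1.21 and 0.45. Psmb9, a catalytic subunit of the immunoproteasome, gave 0.62 (adjusted p = 0.0301), at 1.06 and 0.13. Tapbpl, a peptide editor, gave 0.76 (adjusted p = 0.03), at 1.24 and 0.20. For all 3 the first column group gave the larger difference. Psmb10, another immunoproteasome subunit, passed by its dimmer probe (0.60, adjusted p = 0.0312), and so did Psme1, a proteasome activator subunit (0.43, adjusted p = 0.0427), whereas their brightest probes gave 0.60 (adjusted p = 0.0599) and 0.24 (adjusted p = 0.312). The class I gene H2-Q8 was called by a dimmer probe at 1.21 (adjusted p = 0.0442). H2-Q genes are near-identical and the assignment is uncertain. With the column block the adjusted p was 0.0761 for Tap1, 0.133 for Psmb9, 0.139 for Tapbpl and 0.064 for H2-Q8. Of 15 MHC class II presentation genes none passed by limma, 3 had an unadjusted p under 0.05 (16.4% of all genes did), and the median was 0.02.

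**Figure D4:**
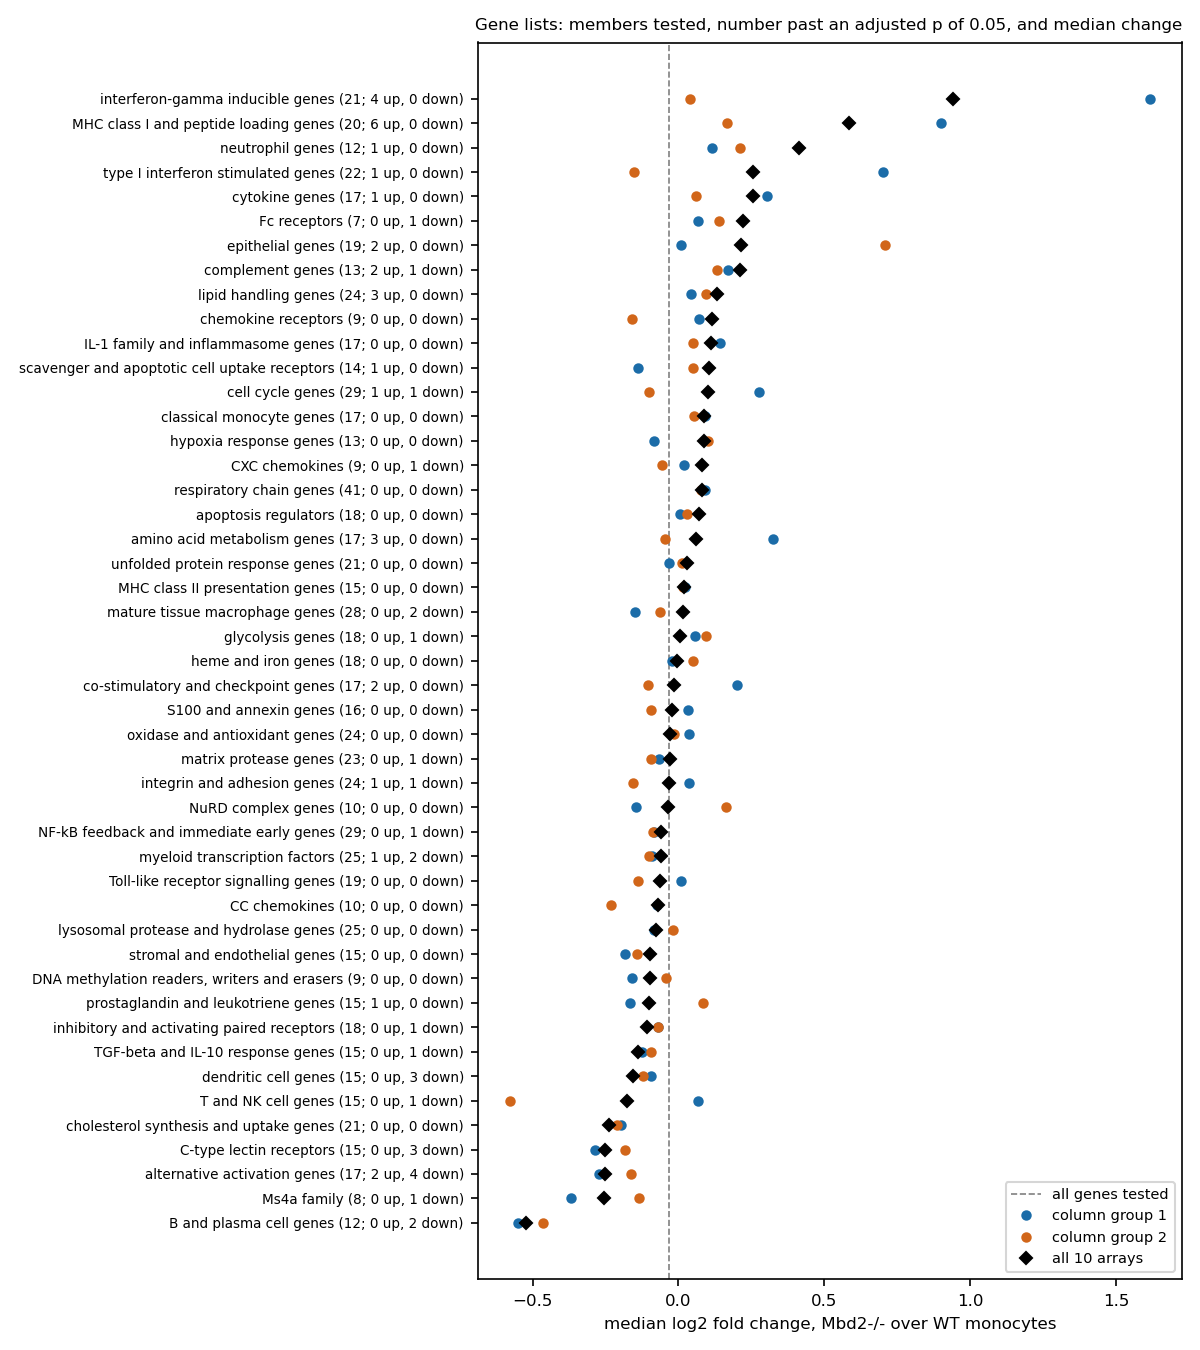
Median log2 fold change (x axis, Mbd2-/- minus WT) of each gene list over its tested members, as black diamonds for all 10 arrays and coloured points for each column group, with the number of members tested and past the adjusted p beside each list of at least 7 members. The dashed line is the median of all genes tested. Interferon-γ inducible genes stand at 0.94 overall and at 0.04 in the second column group, and MHC class I genes at 0.59 and 0.17, while MHC class II genes stand at 0.02 overall.

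Ido1, which degrades tryptophan and so restrains T cells, read 5.94, 4.93, 4.93, 7.15 and 6.70 in WT and 8.13, 7.62, 7.65, 8.58 and 8.70 in Mbd2-/-. WT arrays 4 and 5 were closest to the Mbd2-/- range but did not reach it, and the log2 fold change was 2.20 (standard error 0.39, adjusted p = 0.00321), at 3.37 and 0.88 in the column groups. Pdcd1lg2, the gene of the PD-1 ligand PD-L2, gave 1.12 (adjusted p = 0.0136), at 1.50 and 0.65, with an adjusted p of 0.0726 with the column block. Il15ra, the receptor that presents IL-15 to lymphocytes, gave 1.15 (adjusted p = 0.0118), at 1.81 and 0.34, and its adjusted p was 0.0723 with the block. Il27, a subunit of the cytokine IL-27, gave 1.20 with an adjusted p just under the threshold, at 1.97 and 0.26, with overlapping genotypes, and Slamf8, a surface receptor of myeloid cells, gave 1.20 (adjusted p = 0.0109), at 1.87 and 0.35. Havcr2, or Tim-3, passed by its dimmer probe (0.59, adjusted p = 0.0108), while the brightest gave 0.36 (adjusted p = 0.199). Of 17 checkpoint and co-stimulatory genes 2 passed, both higher, with 8 of the 17 positive and a median of -0.02, and of 17 cytokines Il27 passed.

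Amino acid metabolism included Ido1 and Arg1. Arg1, which hydrolyses arginine, read 9.16, 8.50, 8.45, 8.13 and 8.13 in WT and 10.05, 9.36, 9.73, 8.89 and 9.36 in Mbd2-/-. The genotypes overlapped at WT array 1 and Mbd2-/- array 9, and the log2 fold change was 1.01 (standard error 0.22, adjusted p = 0.0186). Unlike the interferon genes it was smaller in the first column group (0.42) than in the second (1.59). The arginine transporter Slc7a2 gave 1.21 by its brightest probe (adjusted p = 0.0798) and 0.71 by its dimmer probe (adjusted p = 0.00513). Of 17 amino acid genes 3 passed, all higher, with a median of 0.06.

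Reg3b and Reg3g encode C-type lectins that act against gut bacteria and are chiefly made by the gut epithelium. Reg3g read 7.76, 7.93, 7.44, 7.40 and 7.81 in WT and 9.31, 8.28, 9.22, 10.44 and 8.98 in Mbd2-/- (log2 fold change 1.58, standard error 0.35, adjusted p = 0.0176, at 2.00 and 1.33). Reg3b read 11.35, 10.96, 10.80, 11.80 and 11.92 in WT and 12.96, 12.29, 12.73, 13.27 and 12.49 in Mbd2-/- (1.38, standard error 0.28, adjusted p = 0.00854, at 1.84 and 0.80). The genotypes did not overlap for either gene. They were the only 2 of 19 epithelial genes that passed, the median of that list was 0.21 (0.01 and 0.71 in the column groups), and the summed level of the list overlapped between genotypes as given above. Neither difference was particular to monocytes. The log2 fold change of Reg3g was 1.66 in macrophages (limma adjusted p = 0.0114) and 1.62 in CD103+CD11b- dendritic cells (limma adjusted p = 0.0617). That of Reg3b was 1.28 (limma adjusted p = 0.0132) and 1.38 (limma adjusted p = 0.0448). Mean WT levels in monocytes, macrophages and dendritic cells were 7.67, 7.68 and 7.48 for Reg3g. For Reg3b they were 11.37, 11.38 and 10.94. The part of epithelial RNA in these values was not tested.

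Wfdc21, Asprv1, a protease, and Chil1, a chitinase-like protein, rose. These genes are also known from neutrophils. For Asprv1 alone among them the genotypes did not overlap, at 6.08, 5.04, 5.49, 5.79 and 5.77 in WT and 7.51, 7.45, 7.03, 6.70 and 7.10 in Mbd2-/- (log2 fold change 1.52, standard error 0.30, adjusted p = 0.00728, at 1.37 and 1.55). Wfdc21 gave 1.60 (adjusted p = 0.0014) and Chil1 1.13 (adjusted p = 0.00505), with overlap. Cd177, a neutrophil surface protein, was called by a dimmer probe (1.21, adjusted p = 0.0284), whereas its brightest probe gave 0.56 (adjusted p = 0.431). Cd177 was the only 1 of 12 neutrophil genes to pass, with a list median of 0.41. The summed linear level of those genes ran from 4889 to 11436 over the WT arrays and from 9769 to 12499 over the Mbd2-/- arrays, and the part of neutrophil RNA was not tested. Wfdc21 and Chil1 were chosen after their values were seen.

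Further called genes of other roles were chosen after their values were seen, as were C1rl, Cxcl9, Igtp, Gbp2, Il15ra and Slamf8. Plekhg4, a guanine nucleotide exchange factor, gave 1.44 (adjusted p = 0.00114), Scarf1, a scavenger receptor, 1.27 (adjusted p = 0.00341), and Adcy4, an adenylyl cyclase, 1.24 (adjusted p = 0.00272). The G protein-coupled receptors Gpr83 and P2ry14 gave 1.24 (adjusted p = 0.000671) and 1.27 (adjusted p = 0.0153), but the latter was 2.19 in the first column group and 0.27 in the second, while the former was 1.33 and 1.16. Gpr83 was near background in WT (mean 4.57), where 3 of 5 arrays detected it. Hebp1, a heme-binding protein, read 7.08, 6.75, 7.09, 7.18 and 7.18 in WT and 8.38, 8.39, 7.89, 8.30 and 8.15 in Mbd2-/- (1.17, standard error 0.20, adjusted p = 0.00274). Its arrays did not overlap and the column groups gave 1.26 and 1.04. Rab3ip, which acts on a Rab GTPase of ciliary traffic, gave 1.09 (adjusted p = 6.44e-05), and Gjb2, the gap junction protein connexin 26, 1.02 (adjusted p = 0.000671).

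Genes of chromosome segregation moved in both directions. Bub1b, a spindle checkpoint kinase, read 7.37, 7.47, 7.43, 7.68 and 7.74 in WT and 8.37, 8.58, 8.52, 8.41 and 8.60 in Mbd2-/- (log2 fold change 0.96, standard error 0.12, adjusted p = 5e-05). Every Mbd2-/- array was above every WT array, at 1.08 and 0.78 in the column groups. Cenpm, a centromere protein, gave 1.25 (adjusted p = 0.0012), Espl1, the separase that cleaves cohesin, 1.06 (adjusted p = 0.00041) and Tex14, a protein of germ cell bridges, 1.23 (adjusted p = 0.00272), these 3 chosen after their values were seen. Cenpm was near background in WT (mean 4.77), where 3 of 5 arrays detected it. Cenpa, the centromeric histone, fell by 0.68 (adjusted p = 0.035), with overlap. Of 38 cell cycle genes on the array 29 were tested and 7, Bub1 and Ccna2 among them, were detected on no array. Among the 29 Bub1b passed higher and Cenpa lower, and the median was 0.10.

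The largest decrease was in Fcrls, an Fc receptor-like gene known from microglia and tissue macrophages, at 8.75, 8.44, 8.19, 8.21 and 8.37 in WT and 7.19, 6.51, 6.44, 5.28 and 5.81 in Mbd2-/-. All Mbd2-/- arrays were below all WT arrays, and the Mbd2-/- arrays varied more than the WT arrays (SD 0.73 and 0.23). It fell by 2.14 on the log2 scale (standard error 0.25, adjusted p = 3.68e-05), at -2.92 and -1.57 in the column groups. Cd209a, a C-type lectin of monocyte-derived dendritic cells, read 6.47, 7.71, 7.37, 5.85 and 6.79 in WT and 5.10, 5.25, 4.72, 4.70 and 4.78 in Mbd2-/-. The genotypes did not overlap, although WT array 4 came near, and the log2 fold change was -1.93 (standard error 0.29, adjusted p = 0.000671), at -2.44 and -1.30. Of 15 C-type lectin receptors 3 passed, all lower, with a median of -0.25, among them Mrc1, the mannose receptor (-0.74, adjusted p = 0.0479, at -1.29 and -0.21), and Clec4b1 by its dimmer probes. Mrc1 did not pass with the column block (adjusted p = 0.119). Of all genes 1.18% passed lower.

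Spp1, or osteopontin, a secreted matrix protein, read 9.43, 9.58, 9.31, 9.35 and 8.98 in WT and 8.34, 8.12, 8.37, 8.03 and 7.91 in Mbd2-/-. All arrays separated, and the difference was -1.18 (standard error 0.18, adjusted p = 0.0012), at -1.46 and -0.89. Trem2, a receptor for lipids and apoptotic cells, gave -0.82 (adjusted p = 0.021) and Ms4a7, a membrane protein of macrophages, -0.82 (adjusted p = 0.0272). Retnla, a secreted marker of alternative activation, read 8.51, 7.32, 8.57, 8.89 and 8.88 in WT and 7.81, 7.23, 7.07, 6.36 and 7.04 in Mbd2-/-, with WT array 2 inside the Mbd2-/- range. Its log2 fold change was -1.33 (standard error 0.31, adjusted p = 0.0241), at -1.43 and -1.52. Of 17 alternative activation genes 2 passed higher and 4 lower, with a median of -0.25, so the list did not move one way. Of 28 genes of mature tissue macrophages Mrc1 and Trem2 passed, both lower, while 16 of the 28 were positive and the median was 0.02.

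Pf4, a CXC chemokine of platelets and monocytes, read 9.16, 9.56, 9.17, 9.08 and 9.06 in WT and 8.63, 8.15, 8.04, 7.74 and 8.06 in Mbd2-/- (log2 fold change -1.08, standard error 0.16, adjusted p = 0.000671). Klrd1, the CD94 chain of receptors on NK cells and some T cells, read 6.74, 7.79, 7.40, 7.53 and 8.30 in WT and 6.16, 6.15, 5.76, 5.82 and 6.16 in Mbd2-/- (-1.54, standard error 0.24, adjusted p = 0.000954). Neither gene overlapped between genotypes, and in the column groups Klrd1 gave -1.32 and -1.89 and Pf4 -1.40 and -0.79. Of 15 T and NK cell genes Klrd1 alone passed. Their summed linear level ran from 1987 to 6271 over WT arrays and from 3380 to 5016 over Mbd2-/- arrays, and the median of the list was -0.18.

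Cd81, a tetraspanin that holds receptors in the membrane, fell with little spread, at 10.51, 10.79, 10.76, 10.50 and 10.51 in WT and 9.78, 9.86, 9.45, 9.85 and 9.67 in Mbd2-/- (log2 fold change -0.89, standard error 0.11, adjusted p = 7.43e-05). The genotypes did not overlap, and the column groups gave -0.93 and -0.81. Malt1, a protease and scaffold that carries signals from CARD proteins to NF-κB, read 10.35, 10.73, 10.62, 10.94 and 10.65 in WT and 9.74, 9.45, 9.74, 9.84 and 9.40 in Mbd2-/- (-1.02, standard error 0.19, adjusted p = 0.00486, at -0.95 and -1.15). It also fell in macrophages (-0.79, limma adjusted p = 0.021) and in CD103+CD11b- dendritic cells (-1.08, limma adjusted p = 0.024). Its probe is annotated to chromosome 18, and whether called genes lie near the deleted Mbd2 gene was not tested. Flrt3, an adhesion protein, gave -1.07 (adjusted p = 0.00928). Fcmr, the receptor for IgM, gave -1.49 (adjusted p = 0.035) with overlap and was chosen after its values were seen. The loci C230075M21Rik (-1.16, adjusted p = 0.00144), LOC100048721 (-1.07, adjusted p = 0.00731) and E330020G21Rik (-1.06, adjusted p = 0.00362) also fell with no overlap, and no role is given for them here.

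Cd79b, the signalling chain of the B cell receptor, gave -1.07 (adjusted p = 0.00928) and Vpreb3, a protein of B cell precursors, -1.02 (adjusted p = 0.0286), with Vpreb3 detected on 5 WT arrays and 1 Mbd2-/- array. The summed linear level of 12 B and plasma cell genes ran from 2735 to 3454 over WT arrays and from 1747 to 2754 over Mbd2-/- arrays, with a median log2 fold change of -0.52, and 2 of the 12 passed, Cd79b and Tnfrsf17, both lower. Of all genes 1.18% passed lower. The part of B cell RNA in the values of these B cell genes was not tested.

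Transcription factors moved in both directions. Cebpe, a factor of granulocyte and monocyte development, read 5.16, 4.92, 4.94, 5.25 and 4.89 in WT and 5.82, 5.55, 5.62, 5.50 and 5.84 in Mbd2-/-, a rise of 0.64 (standard error 0.15, adjusted p = 0.0271) with no overlap. Irf4, a factor of dendritic cells and alternative activation, fell by 0.75 (adjusted p = 0.0204), Klf2, a quiescence factor, by 0.60 (adjusted p = 0.0319), and Fosb, an immediate early factor, by 0.77 (adjusted p = 0.0051). Smad3, which carries TGF-β signals, fell by 0.69 (standard error 0.14, adjusted p = 0.00865), with an Mbd2-/- SD of 0.07 and WT arrays 4 and 5 the lowest of their group. Zbtb46, a factor of conventional dendritic cells, was near background and fell by 0.44 (adjusted p = 0.0483), and with Cd209a and Irf4 it was 1 of 3 that passed among 15 dendritic cell genes, all lower. Of all genes 1.18% passed lower. Aldoc, a glycolytic aldolase, fell by 0.63 (adjusted p = 0.0239), the only 1 of 18 glycolysis genes to pass. With the column block Arg1, Cd177, P2ry14, Slamf8, Il27, Cfp, Klf2, Cenpa, Zbtb46, Aldoc and Tnfrsf17 did not pass either, with adjusted p-values of 0.0594 (Slamf8) to 0.131 (Il27).

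For 21 of the 50 gene lists examined no member passed the adjusted p by limma, and 53 of their 325 tested members (16.3%) had an unadjusted p under 0.05, against 16.4% of all genes tested. The member with the smallest p in each had an adjusted p of 0.0631 to 0.45. These lists and genes were classical monocyte genes (Chil3), eosinophil and mast cell genes (Ear2; all 3 positive at an unadjusted p under 0.05, median 0.52), stromal and endothelial genes (Pecam1), Toll-like receptor signalling (Myd88), IL-1 family and inflammasome genes (Gsdmd), CC chemokines (Ccl9), chemokine receptors (Cxcr4), heme and iron genes (Blvrb), hypoxia (P4ha1), the respiratory chain (Sdhb), oxidase and antioxidant genes, the unfolded protein response (Creld2), lysosomal enzymes (Ctse), apoptosis regulators (Bcl2), S100 and annexin genes (Anxa3), Schlafen genes (Slfn1), DNA methylation factors (the probe listed as E130014J05Rik), NuRD subunits (Hdac2), and germline genes (Tuba3b), together with MHC class II (H2-Oa) and cholesterol genes (Dhcr7). Of 41 respiratory chain genes 34 were positive, against 43.4% of all genes, with a median of 0.08.

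Macrophages sorted from colons of the same groups of mice, CD11b+MHC-II+Ly6C- cells on 5 arrays of each genotype, showed most of the same directions. Of the 43 genes called higher in monocytes 41 were positive in macrophages and 21 passed the adjusted p there, against 6.55% of all genes that passed in macrophages, and of the 16 called lower all were negative and 9 passed. The monocyte and macrophage arrays have no samples in common, but whether they came from the same animals is not given. In the order of the samples the macrophage arrays were arranged by genotype as the monocyte arrays were. Macrophage differences within such column groups are not given here, so the shared directions are not independent of that arrangement. Over all genes tested the median log2 fold change in macrophages was -0.08. The median log2 fold change of the genes called higher was 1.24 in monocytes, the contrast that chose them, and 0.76 in macrophages, and it was -1.08 and -0.95 for those called lower. The genotype effect differed between the cell types for 2 genes (0.0167%). Cebpe rose by 0.64 in monocytes and changed by -0.68 in macrophages, a difference of 1.32 (standard error 0.21, adjusted p = 0.0209). Spink2, a serine protease inhibitor, rose by 1.22 in monocytes, with arrays of 5.27, 5.73, 5.44, 6.33 and 5.91 in WT and 6.79, 6.55, 7.31, 7.29 and 6.82 in Mbd2-/-, and its log2 fold change in macrophages was -0.42, a difference of 1.63 (standard error 0.26, adjusted p = 0.0209). In macrophages Spink2 was close to background, at a mean of 5.08 in WT, where 4 of 5 arrays detected it, and 4.66 in Mbd2-/-. Its change there did not pass (limma adjusted p = 0.165). Neither of the 2 differences between cell types passed when WT array 2, WT array 3 or Mbd2-/- array 10 was left out.

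**Figure D5:**
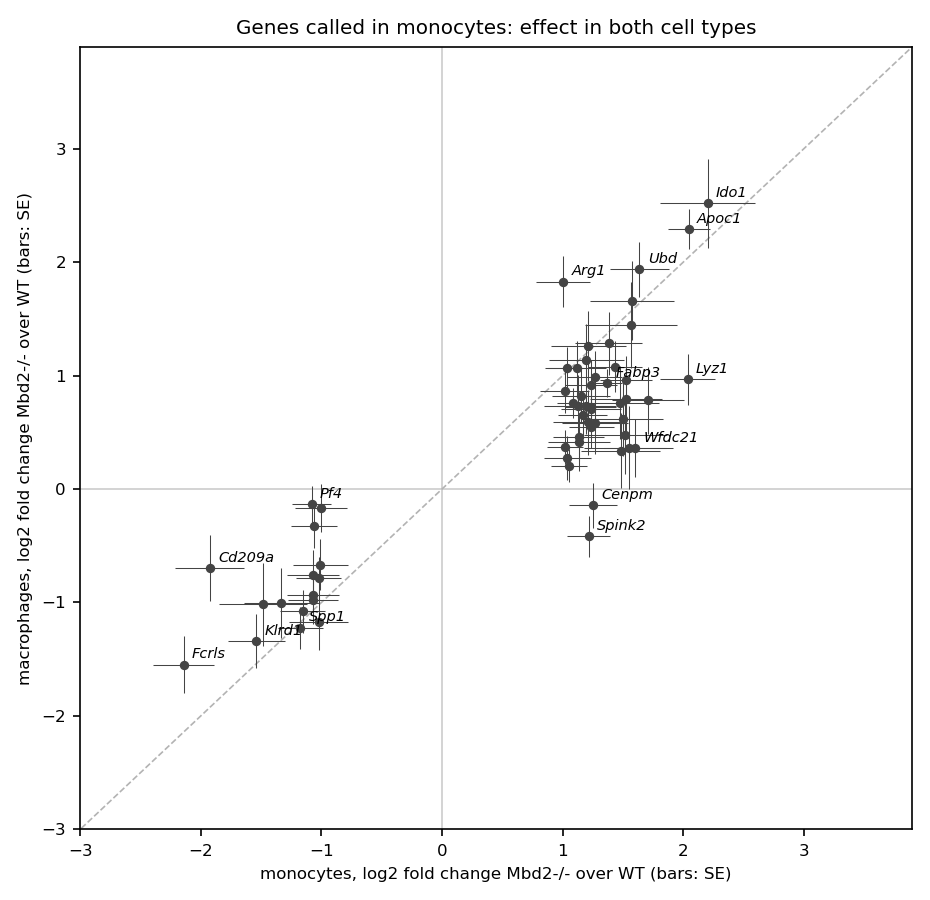
Log2 fold change (Mbd2-/- minus WT) in monocytes (x axis) and macrophages (y axis) of the genes called in monocytes, 1 point per gene with bars for the standard errors and a dashed line of equal values. Of the 43 genes called higher 41 lie above 0 on the y axis, and Spink2 is at 1.22 and -0.42.

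In CD103+CD11b- dendritic cells (cDC1s), of which there were 2 WT and 3 Mbd2-/- arrays, the genotype effect differed from that in monocytes for 122 genes (1.02%), 8 of them called in monocytes. Probes were chosen by detection in monocytes alone, so some were near background in cDC1s. Fabp3 gave 1.37 in monocytes and -0.06 in cDC1s, a difference of 1.43 (standard error 0.22, adjusted p = 0.00318). Its cDC1 means were near background in both genotypes, at 4.36 in WT and 4.30 in Mbd2-/-. Lyz1, by the probe that made the call and not its brightest, gave 2.04 and 0.11, a difference of 1.93 (adjusted p = 0.0279). Pf4 gave -1.08 and 0.77, a difference of -1.85 (standard error 0.28, adjusted p = 0.00353). Apoc1 rose by 2.05 in monocytes and gave 0.67 in cDC1s, a difference of 1.38 (adjusted p = 0.0368). It was near background in WT cDC1s, at a mean of 4.29 against 4.95 in Mbd2-/-, so its change there may be understated. The count of 122 genes went from 35 to 127 as single monocyte arrays were left out.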

How the data were processed

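Illumina MouseWG-6 BeadChips were used, on which a single colour is read per bead. The authors deposited intensities from GenomeStudio that were neither normalized nor background subtracted. The deposited table also holds detection p-values, computed by the software against negative controls. The submitters' processing notes name lumi and limma, and the methods limma. The background correction and normalization are not given in the sources used here. The deposited probes numbered 45281, of 30964 genes, and of 36692 accessions 27655 matched RefSeq entries and updated symbols. A further 3 per-array signal columns belong to no sample and were not used.

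The 25 colon arrays were background corrected (normexp, negative control statistics taken from the detection p-values, offset 16), quantile normalized and put on the log2 scale. A limma model over 6 groups of cell type and genotype gave the genotype effect in monocytes, two-sided, with Benjamini-Hochberg adjustment over 16190 probes. A call needed an adjusted p under 0.05 and a log2 change of 1 or more in size on any probe of the gene. Values are of the brightest tested probe unless another made the call. Intensities measure probes, so levels were not compared between genes, and the number of arrays limits precision. Software was R 4.3.3, limma 3.58.1, data.table version 1.17.8, Python 3.11.15, pandas 2.3.3 and matplotlib 3.10.9.

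The 50 gene lists (920 of 953 genes on the array) and the genes described were chosen with earlier results of these data known, so the lists are described by counts and medians and not tested. Named genes are up to 12 called per direction with the largest change and no overlap, every called or up to 3 passing members of each list (the smallest p where none passed), genes differing from macrophages and marker genes. The others are said to be chosen after their values were seen. Alternatives were median scaling, cyclic loess, an offset of 50, no correction of the background, no or a stricter filter on detection, monocytes alone, array weights, column position as a block, other thresholds and each array left out. Chosen after seeing the data were negative control probes for the background, monocytes alone after joint normalization, the column block on all colon arrays, and leaving out WT arrays 4 and 5 or 1, 2 and 3. The procedure was tested on simulated data. Results of some genes are not reported here.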

Additional observations from a re-analysis of the deposited data

Results flagged for a closer look

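Among 152 groups of 5 arrays of the named genes, 10 held an array whose gap to its nearest neighbour took more than 0.71 of the range of its group, where chance gives about 1 in 20. Mbd2-/- array 10 was far above the others for Irgb10 (0.802 of the range), Gbp2 (0.796) and Zbp1 (0.762). Mbd2-/- array 6 was far from the others for Espl1 (0.772), Cd177 (0.752) and Vpreb3 (0.711), above them in each. WT array 2 was far from the others for Hebp1 (0.775) and Retnla (0.757), below them in both, and for Pf4 (0.776), above them. WT array 4 was far above the others for Tex14 (0.783).

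The genotype effect differed from that in another cell type, by a limma test of the difference, for 9 results of named genes. The monocyte effect minus the cDC1 effect was 1.38 for Apoc1, 1.43 for Fabp3, 1.93 for Lyz1, 1.00 for Havcr2, -1.85 for Pf4, -1.62 for Cd79b and -1.45 for Ms4a7, on the log2 scale. Fabp3 in cDC1s and Apoc1 in WT cDC1s were near background, and the Lyz1 value is of the probe that made the call, not its brightest. The monocyte effect minus the macrophage effect was 1.63 for Spink2, which was close to background in macrophages, and 1.32 for Cebpe.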

How the results depend on the processing

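The count of genes called was 59, 43 higher and 16 lower. It was 18 (17 and 1) with no background correction, 32 (24 and 8) with an offset of 50, 122 (99 higher) with array weights, 39 (28 higher) at an adjusted p under 0.01, 264 (122 and 142) without a minimum fold change, and 119 (86 and 33) at an unadjusted p with the minimum fold change. Median scaling called 16 higher and 43 lower, with a median of -0.26 over all probes. With single arrays left out the count was 40 to 90, with 28 to 79 higher and 8 to 20 lower. It was 90 (79 higher) without WT array 4, 28 were higher without WT array 2, and 8 were lower without Mbd2-/- array 10. Without WT arrays 4 and 5 it was 122 (100 higher), and without WT arrays 1, 2 and 3 it was 15 (7 and 8). No paired analysis was possible because the labels do not tie the arrays to mice, litters or experiments. With the column position as a block, 51 genes were called in monocytes alone and 53 over all colon arrays.

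Genes whose effect differed from macrophages were 2. They were 1 with no background correction, 5 with an offset of 50, 0 under median scaling, 0 under cyclic loess, 5 with no filter, 7 with array weights, 0 to 4 with single arrays left out, 5 without WT arrays 4 and 5 and 0 without WT arrays 1, 2 and 3. Those differing from cDC1s were 122. They were 245 with no background correction, 195 with an offset of 50, 0 under median scaling, 11 with array weights, 35 to 127 with single arrays left out and 8 without WT arrays 1, 2 and 3.

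None of the 76 named genes changed sign over the 24 alternatives in which single genes were fitted (Zbtb46 could be tested in all but the stricter filter). Of the 68 whose probe described here passed the adjusted p, which leaves out Psmb10, Psme1, Havcr2, Slc7a2 and Clec4b1 since these passed by dimmer probes alone, 36 passed with every single array left out, 46 with the column block, 59 without WT arrays 4 and 5, 33 under median scaling, and 10 without WT arrays 1, 2 and 3. Apoc1, Cd81, Fabp3, Fcrls, Klrd1 and Lyz1 passed in each of those 24. For Lyz1 this holds for the probe that made the call, and its brightest probe did not pass in the main fit. With single arrays left out Zbtb46 did not pass in 9 fits, and Irgb10, Il27, H2-Q8 and Mrc1 did not in 8. Fcmr, Retnla, Vpreb3, Cfp, Tapbpl and Cenpa did not pass in 7, and C4b in 6. The causes of these changes were not tested.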
